A study of Mus musculus with 16 samples.

Results

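The loci of 8 mouse genes of the late pluripotency network, Lin28a, Lin28b, Trim71, Dppa2, Dppa4, Utf1, Dppa5a and Tdh, were followed by ATAC-seq through the chemical reprogramming of fibroblasts. ATAC-seq finds open chromatin as DNA into which a transposase can insert sequencing adapters. Members were peaks overlapping the RefSeq span of 1 of these genes on GRCm38 (mm10) extended by 50 kb on each side. That rule used gene positions and no measured value, but the 8 genes were chosen with earlier results of these data known. It took 259 of 397170 peaks, which merged into 103 of the 165616 regions of the series, at 8 of 21887 protein-coding genes. Dppa2 and Dppa4 are neighbours whose windows overlap, so the 8 genes lie at 7 loci.

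The 16 samples fall into 8 stages of 2 samples: mouse embryonic fibroblasts (MEF, day 0), days 2, 4, 6, 8, 10 and 12 of reprogramming, and induced pluripotent stem cells (iPSC). All carry the strain label 129XOG2 with embryonic day 13.5. OG2 mice are known for a green fluorescent protein transgene under Pou5f1 sequences, so fibroblasts and iPSC alike carry extra Pou5f1 regulatory DNA. The fibroblasts grew in serum medium and were moved to a reprogramming medium whose make-up the sources used here do not give. The iPSC grew on feeders in medium with LIF, the GSK3 inhibitor CHIR99021 and the MEK inhibitor PD0325901.

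Each stage came as 1 deposited peak list. The sources used here do not give how its 2 samples were joined, so there was no replicate spread and no test was made. Intervals below are exact Clopper-Pearson 95% intervals that cover counting error only, and neighbouring regions of 1 locus are not independent. In bulk chromatin, fewer cells with an open site and less opening per cell cannot be told apart. The lists held from 31915 peaks (day 12) to 83022 (day 2). A list's background pileup, the lowest local background recovered from its peaks, stands in for depth: it was 1.96 on day 0 and 1.90 in iPSC, so the end points were close, while it was 3.08 on day 2, 1.23 on day 4, 2.12 on day 6, 0.682 on day 8, 0.968 on day 10 and 0.248 on day 12. Of 4 pluripotency marker genes (Pou5f1, Nanog, Sox2, Zfp42), 4 had a gene end covered in iPSC and 1 on day 0. All 4 fibroblast markers (Col1a1, Col1a2, Thy1, Prrx1) had a covered end on day 0, and all 4 also in iPSC. All 4 spermatid markers (Prm1, Prm2, Smcp, Tnp1) had one on day 0 and in no other list. The part of feeder or other cells in the values below was not tested, and class counts over the regions, the 8 genes and the gene lists are also given with day 2, a longer and deeper list, in place of day 0.

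LIN28A and LIN28B are paralogous RNA-binding proteins that block the maturation of let-7 microRNAs, and Lin28a is used as a reprogramming factor. TRIM71 (also called LIN41) is an RNA-binding protein and ubiquitin ligase whose mRNA is a let-7 target. DPPA2 and DPPA4 are SAP-domain proteins that act together on chromatin in pluripotent cells, and UTF1 is a chromatin-bound protein of the same cells. DPPA5A is a KH-domain RNA-binding protein. TDH, threonine dehydrogenase, is the mitochondrial enzyme through which mouse pluripotent cells break down threonine. In reprogramming these genes are known as late markers, switched on after fibroblast genes have been silenced.

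A promoter sequence was found in the RefSeq table (GRCm38.p6) for 4 of the 8 genes, and the 250 bases before the start site are printed for the 3 whose window was covered in at least 1 list, 5′ to 3′ in the direction of the gene. They show the stretch over which the lists of early, late and end-point stages differed. Capitals mark matches to the motifs searched below. The windows are chr10:45470202-45470451 (minus strand, inside the longer annotated span of Lin28b), chr7:139943606-139943855 (plus strand) and chr9:114564370-114564619 (minus strand).
Lin28b: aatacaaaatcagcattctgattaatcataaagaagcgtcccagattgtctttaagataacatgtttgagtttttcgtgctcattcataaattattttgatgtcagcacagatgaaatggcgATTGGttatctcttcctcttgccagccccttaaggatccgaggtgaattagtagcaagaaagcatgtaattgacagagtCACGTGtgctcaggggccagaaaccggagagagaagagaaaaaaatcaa
Utf1: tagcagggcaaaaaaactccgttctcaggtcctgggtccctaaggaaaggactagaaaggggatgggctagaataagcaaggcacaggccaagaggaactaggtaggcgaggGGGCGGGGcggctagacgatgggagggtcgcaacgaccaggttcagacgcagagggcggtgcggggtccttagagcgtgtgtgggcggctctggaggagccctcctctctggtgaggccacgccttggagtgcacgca
Trim71: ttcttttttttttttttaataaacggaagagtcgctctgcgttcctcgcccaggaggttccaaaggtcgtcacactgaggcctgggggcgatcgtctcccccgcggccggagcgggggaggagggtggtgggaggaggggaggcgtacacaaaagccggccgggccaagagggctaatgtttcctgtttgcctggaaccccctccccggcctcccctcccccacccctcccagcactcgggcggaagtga

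The Lin28b window was covered on days 0, 2, 4 and 6 and in none of the later lists. The Utf1 window was covered on days 2, 4, 10 and 12 and in iPSC, and not on day 0. The Trim71 window was covered from day 0 to day 8 and in iPSC. The Lin28a window (chr4:134018817-134019066, minus strand) was covered in no list. Of 32851 such windows of 27025 genes, between 27.9% (day 12) and 43.4% (day 2) were covered in a list, with 36.7% on day 0 and 39.5% in iPSC.

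Motifs were counted on both strands of these windows. The E-box CACGTG occurred 1 time in the Lin28b window, at position -49, and in 6.02% of all windows. The NFY motif CCAAT occurred 1 time there, on the minus strand at position -128, and in 33.8% of windows. The KLF and SP motif GGGCGGGG occurred 1 time in the Utf1 window, at position -138, and in 16.1% of windows, and the SOX motif CATTGT 1 time in the Lin28a window, at position -96, and in 10.7%. The octamer ATGCAAAT (1.60% of windows), the ESRRB motif TCAAGGTCA (0.387%), the AP-1 motif TGANTCA (6.75%) and the E2F motif GGCGGGA (9.75%), which shares letters with GGGCGGGG, were in none of the 4 windows. CG dinucleotides numbered 7 in Lin28a, 6 in Lin28b, 14 in Utf1 and 17 in Trim71, against a median of 6 over all windows. A match is only a run of letters, and its absence says only that these letters are not in this window.

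The first comparison set the chromatin of the end points, fibroblasts and iPSC, side by side at the 8 genes. Regions covered in iPSC and not on day 0, here called iPSC-only, made up 37 of the 103 (35.9%, 95% interval 26.7 to 46.0), against 19.4% of all regions. Regions covered on day 0 and not in iPSC (MEF-only) were 10 (9.71%, 4.75 to 17.1), against 19.3% of all regions. Shared regions, in both end points, were also 10 (9.71%), close to the 10.2% of all regions. The other 46 (44.7%, 34.9 to 54.8) were intermediate-only, seen between day 2 and day 12 but at neither end point, against 51.1% of all regions. With day 2 in place of day 0, 35 regions were in iPSC and not on day 2 (34.0%, against 16.9% of all regions), and 22 the reverse (21.4%, against 37.2%).

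Of the 37 iPSC-only regions, 21 lay in or next to the genes themselves. Within a member's span or 1 kb of it lay 36 regions, of which 21 (58.3%) were iPSC-only, 3 MEF-only, 2 shared and 10 intermediate-only. In the rest of the windows lay 67 regions, of which 16 (23.9%) were iPSC-only, 7 MEF-only, 8 shared and 36 intermediate-only. The share in the flanks was thus nearer to the 19.4% of all regions than the share in the gene bodies. The iPSC-only share of regions in or next to the bodies of all genes was not counted.

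All 8 genes had more iPSC-only than MEF-only regions in their window, a balance found at 41.1% of all protein-coding genes, while 31.6% of genes had the reverse. The median over the 8 genes was 5.5 iPSC-only and 1 MEF-only regions, against 2 and 2 over all genes. Trim71, with the most regions, had 9 iPSC-only and 3 MEF-only of 28, and Tdh 6 and 2 of 16. Dppa2 and Dppa4 each had 6 and 0 of 13, of which most are the same regions. Lin28b had 5 and 2 of 9, Utf1 4 and 3 of 13, Dppa5a 4 and 0 of 11, and Lin28a 3 and 0 of 12. Utf1 was thus the least one-sided of the 8. At the background of day 8, 7 of the 8 genes had more iPSC-only than MEF-only regions. The share of all genes with that balance was not counted on this scale. With day 2 in place of day 0, 7 of the 8 had more regions of iPSC and not day 2 than the reverse, against 4388 of all 21887 genes. Utf1 was the exception, with 2 against 5, while Trim71 had 9 against 7, Tdh 6 against 3, Dppa2 and Dppa4 7 against 1, Lin28b 4 against 2, Dppa5a 4 against 2 and Lin28a 3 against 2.

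**Figure D1:**
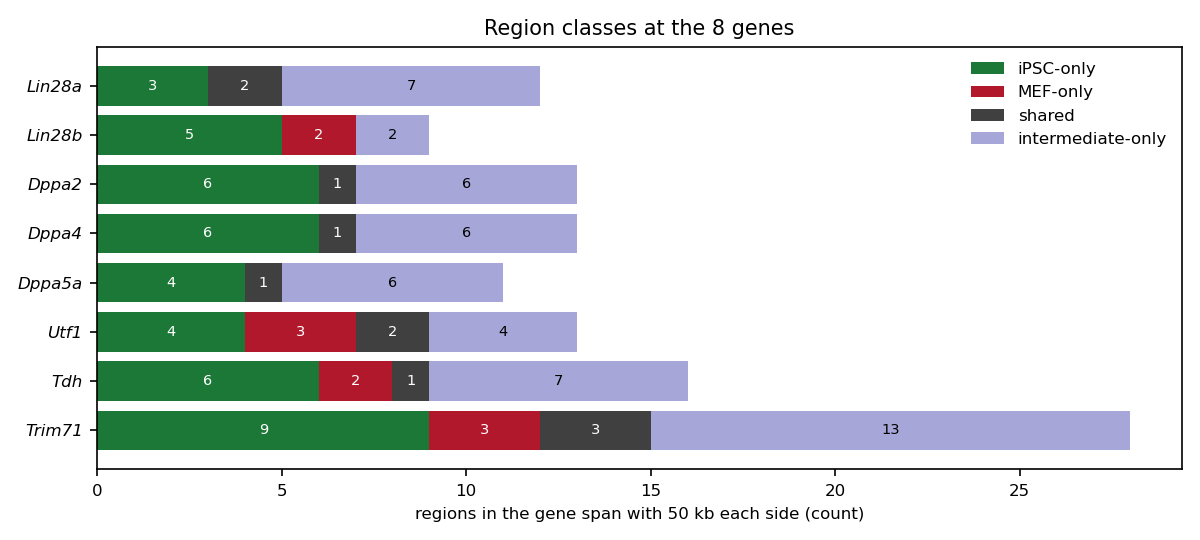
Number of regions of each class in the gene span with 50 kb each side (horizontal axis, count) for the 8 genes; the bars start at 0 and the numbers inside them are region counts. The iPSC-only part is longer than the MEF-only part at each gene, and Lin28a, Dppa2, Dppa4 and Dppa5a have no MEF-only region.

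Across the stages, coverage at the 8 genes was below that of all regions early and above it late. On day 0, 20 of the 103 regions were covered (19.4%, against 29.4% of all regions), on day 2 34 (33.0%, against 49.9%), on day 4 20 (19.4%, against 24.4%) and on day 6 29 (28.2%, against 33.5%). On day 8 the count was 35 (34.0%, against 23.5%), on day 10 42 (40.8%, against 25.7%), on day 12 25 (24.3%, against 18.8%), and in iPSC 47 (45.6%, against 29.6%). The change of side fell between days 6 and 8. The gaps on days 4, 6 and 12 were narrower than those of the other lists, and no interval was computed for any of them. Scaled to the background of day 8, the counts from day 0 to day 12 were 16, 24, 18, 20, 35, 42 and 25, with 34 in iPSC, and the share of all regions was 22.9%, 33.8%, 20.7%, 23.2%, 23.5%, 24.8%, 18.8% and 22.2% in the same order. The side of each list was the same on that scale.

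**Figure D2:**
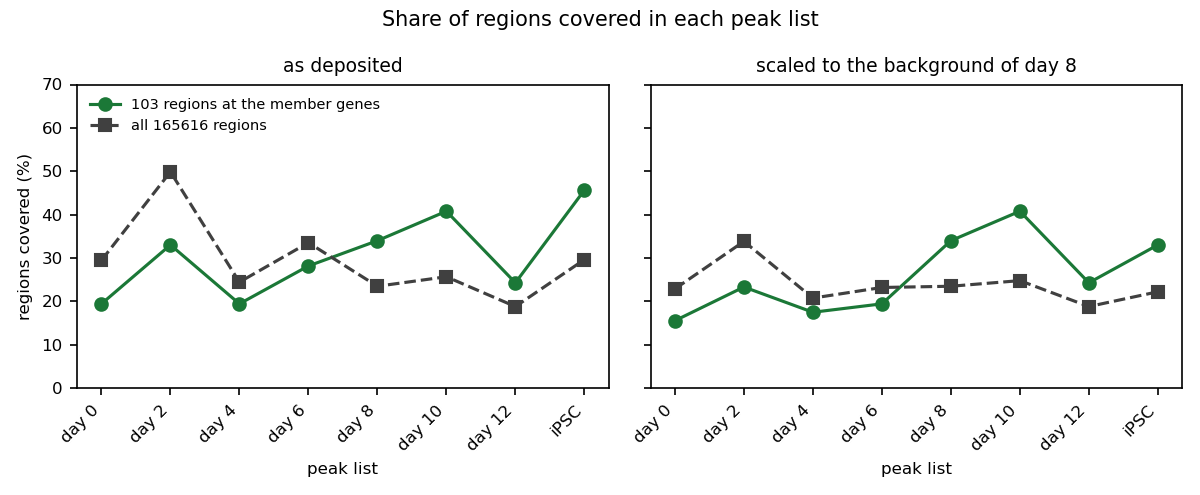
Share of regions covered (vertical axis, percent) in each of the 8 peak lists (horizontal axis), for the 103 regions at the 8 genes (circles) and all 165616 regions (squares), as deposited and scaled to the background pileup of day 8. The circles lie below the squares from day 0 to day 6 and above them from day 8 to iPSC in both panels.

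Few of the iPSC-only regions were covered before the end point. Of the 37, 11 (29.7%, 15.9 to 47.0) were also covered in at least 1 intermediate list, and 26 in iPSC alone. Over all regions 33.0% of iPSC-only regions had an intermediate list, so the members were near the general share. Of the 37, 3 were covered on day 2, 2 on day 4 and 2 on day 6, then 8 on day 8, 10 on day 10 and 8 on day 12. Over all iPSC-only regions the shares by day were 15.5%, 6.79%, 8.77%, 15.1%, 17.6% and 9.96%, so a rise between days 6 and 8 was also seen over all regions. Of the 10 MEF-only regions, 7 were still covered in an intermediate list, near the 71.2% of all MEF-only regions, and 3 were covered on day 0 alone.

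The intermediate-only regions also leaned to the later days. Of the 46, 28 (60.9%, 45.4 to 74.9) were seen in days 8 to 12 alone, 13 (28.3%, 16.0 to 43.5) in days 2 to 6 alone and 5 in both. Over all intermediate-only regions the shares were 39.7%, 54.3% and 6.00%. Many of them rest on 1 list: 55 of the 103 regions (53.4%) were covered in a single list, against 52.0% of all regions.

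Regions covered in all 8 lists numbered 5 of 103 (4.85%), near the 5.42% of all regions, and none lay within 1 kb of a member gene. They were at chr4:133967199-133968933, near the ends of Hmgn2 and Dhdds, chr4:134000509-134001256, at the other end of Dhdds, chr7:139949865-139951316, between Utf1 and Spef1l, chr9:114583881-114585295, near an end of Cnot10, and chr14:63543445-63544577, at an end of Mtmr9.

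Gene ends were taken as covered where a peak lay within 1 kb of either end of the span. On day 0 this held for 1 of the 8 genes, Trim71, against 55.0% of all genes. It held for 3 on day 2 (Lin28b, Utf1, Trim71; 62.2% of genes), 2 on day 4 (Utf1, Trim71; 51.6%) and the same 2 on day 6 (54.5%). On day 8 it held for 4 (Lin28b, Dppa5a, Tdh, Trim71; 55.2%), on day 10 for 3 (Lin28b, Dppa5a, Utf1; 56.4%) and on day 12 for 4 (Lin28b, Dppa5a, Utf1, Tdh; 44.3%). In iPSC 7 of the 8 genes had a covered end, all but Lin28a, against 58.6% of genes. For Lin28b the ends are those of its longer annotated span. Its promoter window lies inside that span and was covered on days 0, 2, 4 and 6 alone. The counts on days 8 and 12 were nearest to the general share, and those of days 0 to 6 and of day 10 were lower. With only 8 genes, a step of 1 gene between days is not read as a difference. At the background of day 8, the counts were 1, 2, 2, 0, 4, 3 and 4 by day and 7 in iPSC, against 50.6%, 56.1%, 49.7%, 47.9%, 55.2%, 56.1%, 44.3% and 54.0% of all genes.

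Fold enrichments below are the authors' own values at the summit of each peak, over the local background of its list. They rank peaks within a list and are not compared between lists. Where a region held several peaks of a list, the value is that of its best-scored peak.

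Lin28a, a let-7 blocker (chr4:134003330-134019196, minus strand), was the gene with the least signal at its ends. No peak came within 1 kb of an end in any list, and the gene body held 2 iPSC-only regions. The region at chr4:134011643-134012044 had a fold of 5.71 on day 10 and 4.16 in iPSC, and chr4:134016935-134017523 had 3.88 in iPSC alone. With the end window widened to 2.5 kb, an end of each of the 8 genes was covered in iPSC, those of Lin28a by the second of these and by the Dhdds region covered in all 8 lists, 2.074 kb past its downstream end. That Dhdds region had the highest fold of the window in both end points, 6.89 on day 0 and 11.2 in iPSC.

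A site 22.382 kb upstream of Lin28a, chr4:134041578-134042219, had the opposite timing. It was covered on each intermediate day and in neither end point. Its fold was 8.33 on day 2, 3.59 on day 4, 5.45 on day 6, 7.64 on day 8, 6.61 on day 10 and 3.20 on day 12. It was the only one of the 46 intermediate-only regions to be covered in all 6 intermediate lists. The share of all intermediate-only regions with that trait was not counted. The day 4 and day 12 peaks were among the weakest of their lists, at percentiles 5.4 and 8.6 by score. The day 12 peak had a summit pileup of 3, the lowest in that list.

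Lin28b, the paralog (chr10:45376617-45486314, minus strand), showed a different site in early and in late lists. The site over the start of the promoter table, chr10:45468974-45470503, had a fold of 3.72 on day 0, 6.71 on day 2, 4.98 on day 4, 4.81 on day 6 and 6.76 on day 10, and no peak on days 8 and 12 or in iPSC. The site at the upstream end of the annotated span, chr10:45485711-45487075, had 5.15 on day 2, 7.13 on day 8, 7.26 on day 10, 5.55 on day 12 and 8.13 in iPSC, and no peak on days 0, 4 and 6. The upstream end was thus covered in each list from day 8 on, and the other site in each list up to day 6, with days 2 and 10 holding both.

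Within the Lin28b body, chr10:45446288-45446571 was covered on day 8 (fold 5.94), day 10 (5.59) and in iPSC (9.66), the highest iPSC value of the window. The highest day 0 value, 4.73 at chr10:45458822-45459251, was in day 0 alone. A further site at chr10:45473305-45473986 was covered in iPSC alone, with a fold of 5.18. The Lin28b window held no shared region.

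Trim71, the let-7 target (chr9:114511268-114564369, minus strand), was the only one of the 8 genes with a covered end on day 0. The site at its start, chr9:114563863-114565091, had a fold of 4.34 on day 0, 4.23 on day 2, 4.62 on day 4, 3.39 on day 6, 3.67 on day 8 and 5.45 in iPSC, with no peak on days 10 and 12. Both end points thus had a peak at the start, but the day 0 peak was a low one, at percentile 23.6 of its list by score. No member had a covered end on day 0 with the better-scored 50% of each list, with lists of equal length, with an overlap of 50% of the region or at the background of day 12. The iPSC-only regions of the gene lay further inside.

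The Trim71 body held 5 iPSC-only regions, and all 5 were in iPSC alone. Their iPSC folds were 6.26 at chr9:114556350-114557487, 5.38 at chr9:114536576-114536983, 5.02 at chr9:114548984-114549422, 2.99 at chr9:114513317-114513602 and 2.78 at chr9:114546890-114547511. Between the last and the third of these lay chr9:114547639-114548113, which was covered in days 8, 10 and 12 alone, with folds of 9.19, 7.56 and 5.53. The peaks of the late days and of iPSC therefore did not overlap within this stretch of the gene. The nearest iPSC peak, that of fold 2.78, ended just short of the late region and was a low one, at percentile 12.8 by score.

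Further sites of the Trim71 body were open at other times. A shared site, chr9:114526020-114528491, had a fold of 6.28 on day 0 and 4.24 in iPSC and was missing on day 12. A site at chr9:114541306-114542371 was covered from day 2 to day 10 and in neither end point. In the window, the highest iPSC fold was 6.81, in the Cnot10 region covered in all 8 lists, and the highest day 0 fold 6.52, at chr9:114614279-114614971 within Cnot10, a MEF-only region.

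**Figure D3:**
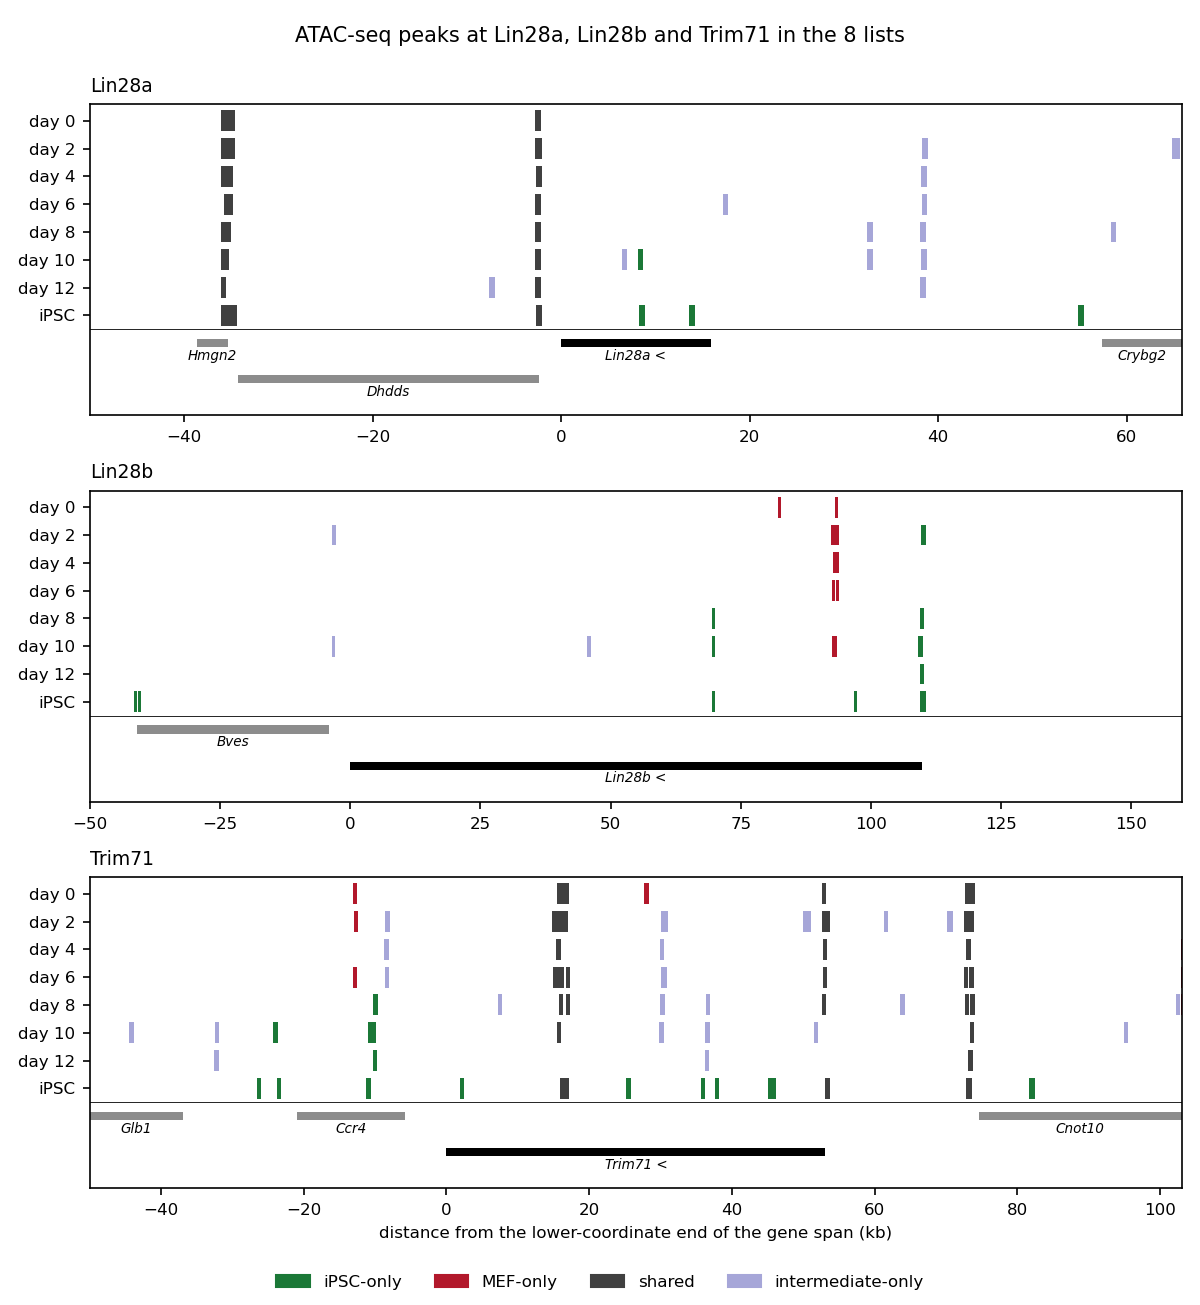
Peaks of the 8 lists (rows) at Lin28a, Lin28b and Trim71, by distance from the lower-coordinate end of the gene span (horizontal axis, kb); black bars are the 3 genes, grey bars their neighbours, < marks the minus strand, and colours give the class of the region. At Lin28b the MEF-only peaks near 93 kb and the iPSC-only peaks near 110 kb fall in different rows, except on days 2 and 10.

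Dppa4 (chr16:48283735-48294292) and Dppa2 (chr16:48310274-48319513) encode the chromatin partners and lie next to each other. Their joint window held no peak at all on days 4 and 6, 1 on day 0 and 1 on day 2. Open chromatin at the ends of both genes was found in iPSC alone. The iPSC fold was 4.95 at the lower end of Dppa4, chr16:48283308-48284512, 4.63 at the lower end of Dppa2, chr16:48308753-48310381, and 3.38 next to the upper end of Dppa2, chr16:48320189-48320614.

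Between the genes, chr16:48297488-48298148, 3.196 kb from Dppa4, opened earlier. It had no peak up to day 6, then a fold of 11.7 on day 8, 8.91 on day 10, 9.57 on day 12 and 5.42 in iPSC. Its day 8 peak ranked at percentile 88.6 of that list by score, so it was among the better-scored peaks on the first day it was seen. It was also the only covered region of the window on day 8. A shared site at chr16:48303272-48304454 had 4.06 on day 0, 4.62 on day 12 and 6.61 in iPSC, the highest value of the window in both end points.

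Utf1, the smallest of the chromatin genes (chr7:139943856-139945112, plus strand), had 2 regions at its ends. The region over its promoter and body, chr7:139943655-139944909, had no peak on days 0 and 8 and folds of 7.20 on day 2, 5.71 on day 4, 3.81 on day 6, 7.19 on day 10, 8.94 on day 12 and 3.63 in iPSC. It was thus open before the late days, unlike the ends of Dppa2, Dppa4, Dppa5a and Tdh. The day 6 and day 12 peaks of this region lay 96 bp apart, though each overlapped the iPSC peak. The region just downstream, chr7:139945436-139946321, 324 bp past the gene, was in iPSC alone, with a fold of 4.52. An enhancer bound by OCT4 and SOX2 is known from earlier work in the 3′ flank of Utf1; whether it is this region was not tested.

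Elsewhere in the Utf1 window, the highest iPSC fold was 8.39, at chr7:139913827-139915984 within Kndc1, an iPSC-only region covered on every day from day 2 to day 12. Peaks of those days overlapped the iPSC peak only towards its lower edge, apart from a second day 8 peak inside it. The iPSC peak ran from -29.231 to -27.872 kb from the lower end of Utf1, and the day 12 peak from -29.518 to -29.193 kb. The highest day 0 fold was 8.53, at the site between Utf1 and Spef1l covered in all 8 lists. The 3 MEF-only regions lay in Kndc1 (2) and at an end of Spef1l, where chr7:139970853-139972404 had a fold of 7.67 on day 0 and was covered up to day 8. All 3 thus lay in or at the end of a neighbouring gene, and none within 1 kb of Utf1.

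Dppa5a, the RNA-binding protein gene (chr9:78367052-78368199), had its 4 iPSC-only regions within 10 kb, 2 of them next to its ends. The site 632 bp from its lower end, chr9:78364829-78366420, had no peak up to day 6 and folds of 8.29 on day 8, 7.55 on day 10, 7.83 on day 12 and 4.61 in iPSC. The site 6.131 kb on the other side, chr9:78374330-78375683, followed the same days, with 7.39, 7.01, 8.39 and 5.00. The sites at chr9:78368813-78369569, next to the upper end, and chr9:78359547-78360653 were in iPSC alone, each with a fold of 3.48.

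The iPSC folds at Dppa5a sat on a raised local background. At the site 632 bp away the recovered summit pileup was 80 in iPSC over a local background of 16.6, against 1.90 for the list, and 16 on day 8 over 1.05, against 0.682. The local background was thus above that of the list in both, and these pileups are not scaled for depth. The highest fold of the window in both end points, 6.40 on day 0 and 8.25 in iPSC, was at the end of Ddx43, chr9:78395368-78396385, a shared region.

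Tdh, the threonine dehydrogenase gene (chr14:63492347-63509092), had 4 regions in its span or within 1 kb, and all 4 were iPSC-only. The site at its upper end, chr14:63508549-63509317, had no peak up to day 6 and folds of 4.75 on day 8, 4.62 on day 12 and 4.09 in iPSC. The 3 others were in iPSC alone, with folds of 6.10 at chr14:63500307-63501057, 4.75 at chr14:63507420-63507844 and 3.97 at chr14:63501841-63502262. The body of Tdh was therefore free of peaks on day 10 as well as up to day 6. In the window, the Mtmr9 region covered in all 8 lists had the highest fold in both end points, 6.93 on day 0 and 8.72 in iPSC.

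**Figure D4:**
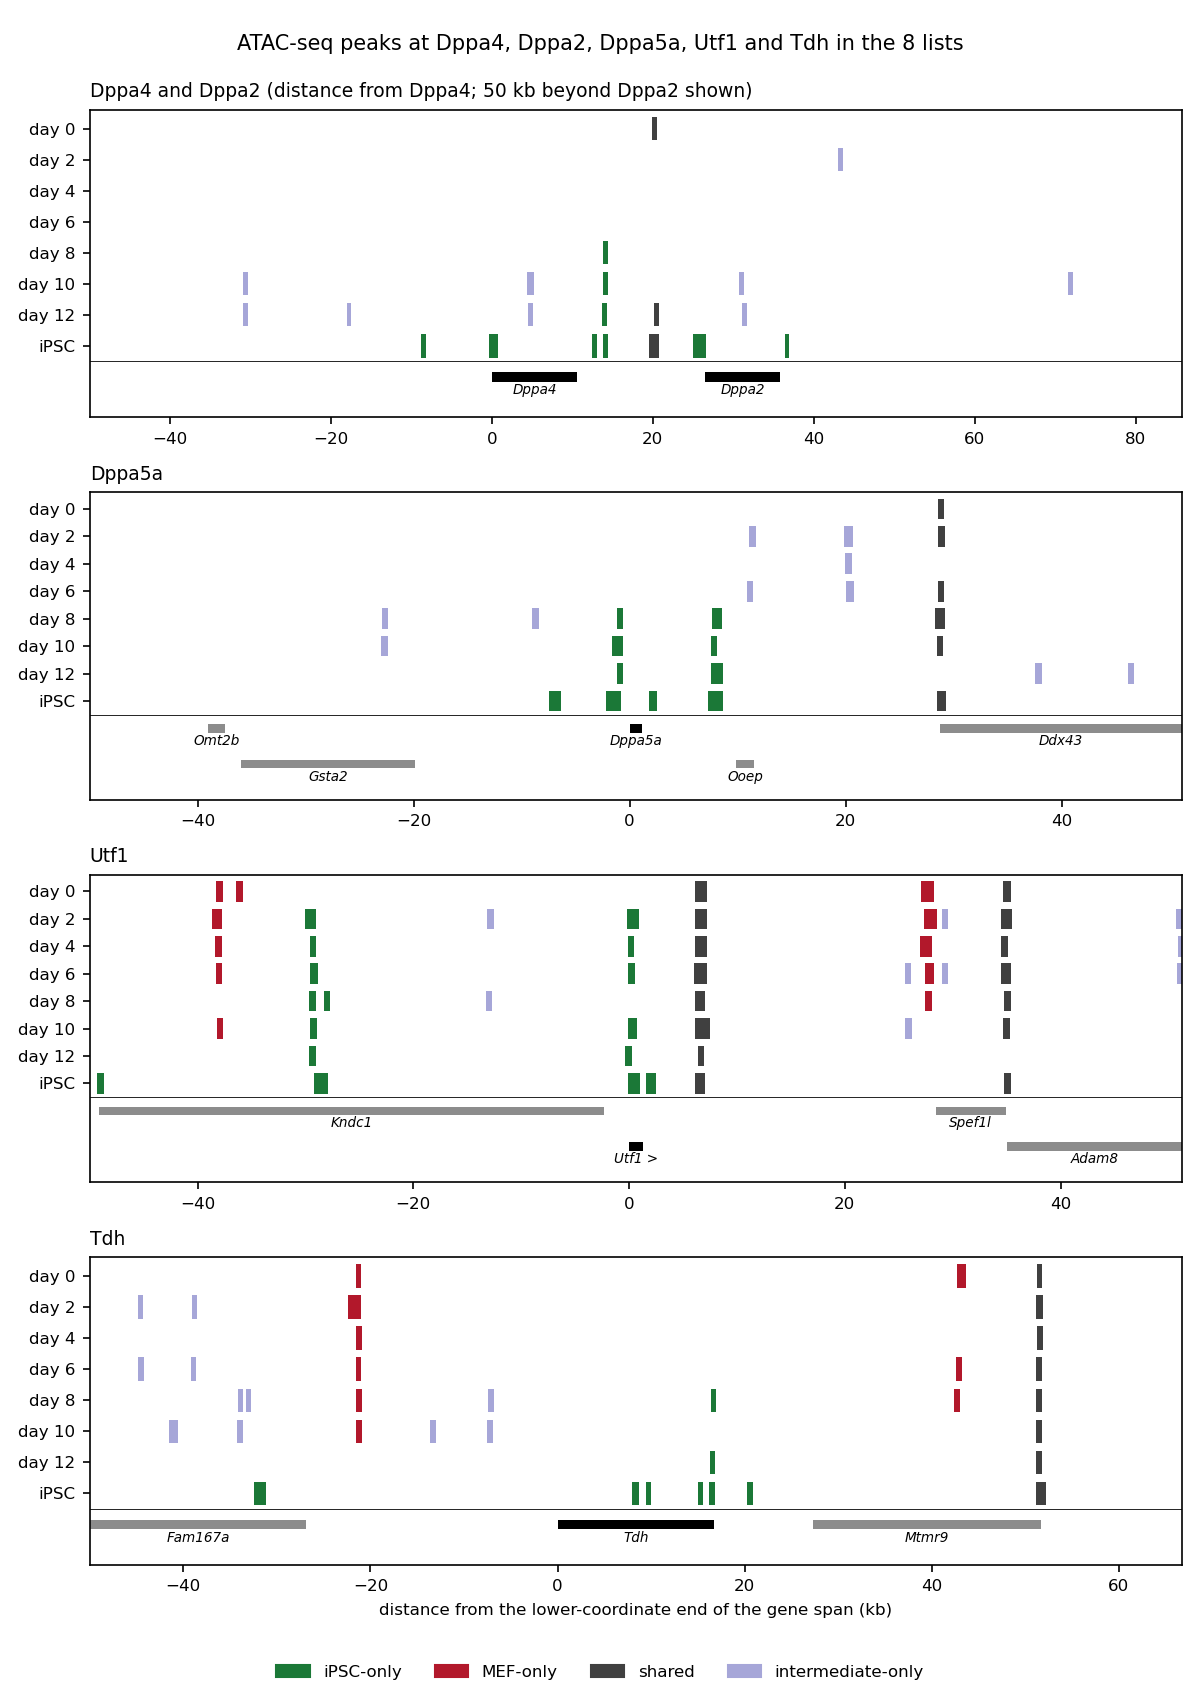
Peaks of the 8 lists (rows) at Dppa4 with Dppa2, Dppa5a, Utf1 and Tdh, by distance from the lower-coordinate end of the gene span (horizontal axis, kb; from Dppa4 in the top panel), with genes and classes drawn as black and grey bars and colours. The rows of days 4 and 6 are empty at Dppa4 and Dppa2, and at Tdh the peaks inside the gene are in the iPSC row except at the upper end, where days 8 and 12 also have one.

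A set of regions was covered in iPSC and in at least 2 of days 8, 10 and 12, and in no list up to day 6. There were 6 of them (5.83% of the 103, 2.17 to 12.2), against 1.33% of all regions. They were the sites described above at Lin28b (chr10:45446288-45446571), between Dppa4 and Dppa2, next to Dppa5a and 6.131 kb from it, at the upper end of Tdh, and, 9.833 kb from Trim71, chr9:114499928-114501435 within Ccr4. The last had folds of 3.70 on day 8, 6.47 on day 10, 4.14 on day 12 and 5.50 in iPSC, but its day 8 and day 12 peaks lay 449 bp from the iPSC peak and were joined to it only by the day 10 peak. Counting only regions where at least 2 of the later days overlap the iPSC peak itself, 5 remained (4.85%), against 1.29% of all regions. Of the 8 genes, 6 had such a region in their window, all but Lin28a and Utf1, against 16.4% of all genes, with Dppa2 and Dppa4 sharing theirs and that of Trim71 being the joined one. The 6 regions became 3 with the better-scored 50% of each list, 3 with an overlap of 50% of the region, and 5 without the day 12 list. They became 7 with lists of equal length, at the background of day 8 or without the day 2 list, and 8 at the background of day 12. The share of all regions was not counted under these settings.

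Whether the iPSC-only regions could have been seen on the later days at the depth of those lists was then measured. Each iPSC peak was scaled down to the background pileup of the other list and counted as kept if its recomputed −log10 p reached the lowest value in that list. On day 8, 29 of the 37 iPSC-only regions were not covered, and 16 of these would have been kept. On day 10 it was 21 of 27, and on day 12 5 of 29. By this rule most of the missing peaks were thus not kept on day 12, while on days 8 and 10 most of them were. The same shares over all iPSC-only regions were not counted. The rule is rough, as a peak that is not kept may still be called. The iPSC peaks over the Utf1 promoter, at the upper end of Tdh and between Dppa4 and Dppa2 were not kept for day 12. All of these regions had a day 12 peak. Those kept on day 8 include the lower ends of Dppa4 and Dppa2, 3 body sites each of Trim71 and Tdh, and the site downstream of Utf1. The site next to the upper end of Dppa2 was not kept on day 8.

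**Figure D5:**
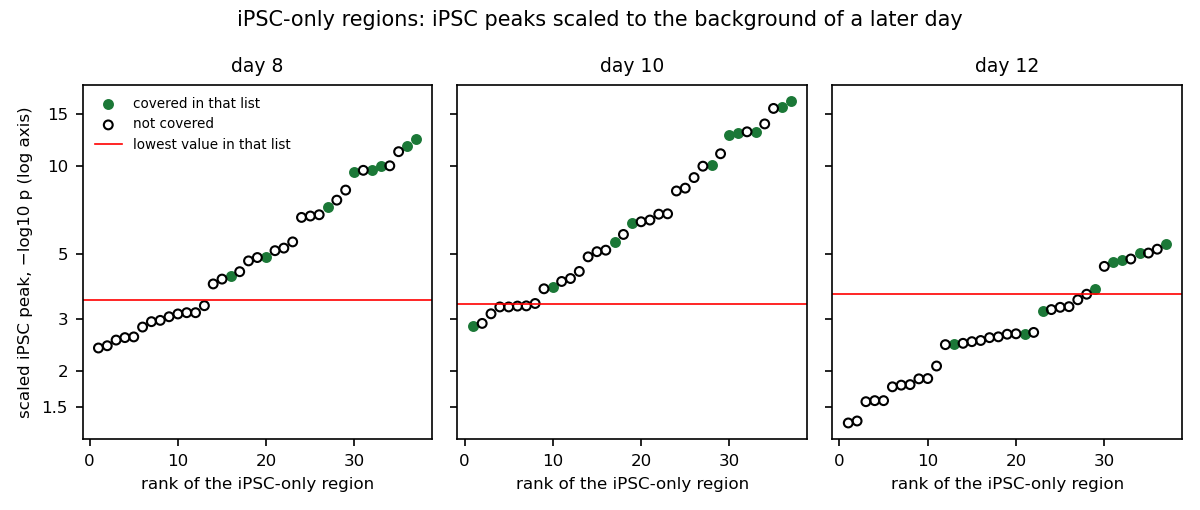
The 37 iPSC-only regions ranked by their iPSC peak after scaling to the background of day 8, day 10 or day 12 (vertical axis, −log10 p, log scale; horizontal axis, rank); filled points are covered in that list, open points are not, and the red line is the lowest value in that list. Open points above the line number 16 on day 8, 21 on day 10 and 5 on day 12.

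Lists of related genes were read in the same way, as counts of genes with more iPSC-only or more MEF-only regions in their window. Of 22 other pluripotency genes, 21 had more iPSC-only regions and 1, the epithelial cadherin gene Cdh1 (3 against 6), more MEF-only, with a median difference of 5 regions against 0 over all genes. Esrrb, a nuclear receptor of the naive state, had 13 against 2, and Dppa3, a germline and pluripotency factor gene, 10 against 1. Their ends were covered in 7 of 22 genes on day 0 and 19 in iPSC, where the 8 genes had 1 and 7 of 8. With day 2 in place of day 0, 17 of the 22 had more regions of iPSC and 2 the reverse, against 4388 and 12709 of all 21887 genes. As this list was chosen with results of these data known, it is no independent evidence of a direction.

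Partners of LIN28 and targets of let-7 were more evenly split. Of 14, 7 had more iPSC-only and 6 more MEF-only regions (median difference 0.5). With day 2 in place of day 0, 3 had more of the former and 8 more of the latter kind. Over all 21887 genes these counts with day 2 were 4388 and 12709, so most genes leaned the same way. Drosha, the nuclear nuclease of microRNA maturation, had 12 against 3. Hmga2, a chromatin protein gene and let-7 target, had 6 against 11. Ends of 13 of the 14 were covered on day 0 and of 12 in iPSC, where neither Lin28a nor Lin28b had a covered span end on day 0. The promoter window of Lin28b, inside its span, was covered on day 0 and not in iPSC.

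Genes of threonine and one-carbon metabolism, around TDH, had more iPSC-only regions in 7 of 12 cases and more MEF-only in 4 (median difference 1). With day 2 in place of day 0 the balance turned, to 2 against 8. Over all 21887 genes it turned as well, from 9001 against 6926 to 4388 against 12709. The turn was thus not particular to this list. Gcat, the enzyme gene next to Tdh in threonine breakdown, had 2 against 1, and Gldc, of glycine cleavage, 3 against 4. Ends were covered for 11 of 12 on day 0 and 12 in iPSC. For contrast, 12 of 14 fibroblast genes had more MEF-only regions (median difference −4.5), with Fbn1, a fibrillin gene, at 1 against 18, while the 12 ubiquitously expressed genes split into 5 with more iPSC-only and 5 with more MEF-only regions (median difference 0). With day 2 in place of day 0 these were 13 of 14 fibroblast genes, and 3 against 9 of the ubiquitously expressed genes. Both lists thus leaned to the side that most of all genes took with day 2.

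Genes whose coverage over the 8 lists was most like that of a member were found by the mean absolute difference in the share of regions covered, over genes with at least 10 regions and more than 1 Mb away. This is a description over 8 lists that share their depth, with no test. For Dppa5a it was Elf5 (2.80 percentage points), Slc25a36 and Gtsf1l, where the median gene differed by 17.9 points. For Dppa2 it was Triml1 (3.75 points), Zyg11a and Themis, tied with 1 other gene, and the same 3 came up for Dppa4 (Triml1 at 4.71). For Trim71 it was Gpnmb (2.26), Sugt1 and Plekhg4. For Tdh it was Gata2 and Nup155 (3.13 each) and Gm5148. For Lin28a it was Nceh1 and 6430571L13Rik (3.13 each) and Nnt, and for Utf1 Atxn7l2 and C1qtnf2 (3.85 each) and Prkacb. Lin28b, with fewer than 10 regions, was not compared. The medians over all genes compared ran from 13.1 to 27.7 points, highest for the Dppa4 window with its empty early days.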

How the data were processed

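Members and gene lists were chosen with earlier results of these data known. The submitters' processing notes name MACS2 2.1.2, Bowtie2 2.2.5, fastp 0.20.1, deepTools 3.4.3 and SAMtools, and build mm10. Settings, any shift of reads for the transposase, and the joining of samples are not given in the sources used here. Each deposited list gives each peak a score, a fold enrichment (a ratio to the local background), a −log10 p-value and a −log10 q-value (not used) at the summit, as the authors' caller wrote them.

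Peaks on chromosomes 1 to 19, X and Y were merged into regions at an overlap of 1 bp. Peaks on other sequences, 36 to 57 in each list, were dropped. Depth was not stated: the summit pileup and local background were recovered from the deposited fold and −log10 p-value, within 0.001 for at least 99.95% of peaks per list, and for 100% of made-up peaks with known pileups in each list. For a common depth, pileup and background were multiplied by the ratio of the list backgrounds and the Poisson p recomputed, in place of the random thinning planned. Genes came from a RefSeq table of GRCm38.p6 with spans and no exons, so exon, intron and UTR are not given, and promoters from the RefSeq promoter table. Coordinates are 1-based.

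Named regions were, per member, those within 1 kb of a gene end, those of highest fold at day 0 and in iPSC, those covered late and in iPSC, and those covered in all 8 lists. A like gene was 1 of the 3 with the smallest difference. Other regions named were chosen after their values were seen. Alternatives were a stricter score, equal list lengths, a larger overlap, scaling to days 8 and 12, other windows and lists left out. Python 3.11.15, pandas 2.3.3, numpy 2.4.6 and scipy 1.17.1 were used.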

Additional observations from a re-analysis of the deposited data

How the results depend on the processing

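No paired analysis was possible because each stage has 1 peak list whose columns carry no replicate number; for the same reason no replicate could be left out. Of 175 recomputed counts, 105 stayed within 1.5 times the main count and 70 did not; the cause was not tested beyond the smaller set of peaks or regions that a setting leaves. The 8 genes with more iPSC-only than MEF-only regions became 6 to 8, and the late regions 3 to 8, over these settings. Shares over all genes or regions were not counted under most of these settings. With the better-scored 50% of each list, iPSC-only regions were 21, MEF-only 4, shared 6, intermediate-only 22 and late 3; covered regions were 10, 17, 12, 13, 19, 20, 14 and 27 from day 0 to iPSC, and covered ends 0, 1, 1, 0 and 2 from day 0 to day 8. With lists of equal length, MEF-only regions were 4 and shared 6, covered regions 10 on day 0, 12 on day 2, 17 on day 6 and 31 in iPSC, and covered ends 0 on days 0, 2 and 6. With an overlap of at least 50% of the region (a peak lies inside its region, so the planned wording comes to this), shared regions were 6, late 3, covered regions 8 on day 4 and 10 on day 12, and covered ends 0 on days 0, 4, 6 and 12 and 2 on day 8. Scaled to the background of day 8, covered ends on day 6 were 0, and the other 22 counts stayed, among them 25 iPSC-only and 7 MEF-only regions. Scaled to that of day 12, iPSC-only regions were 16, of which 7 within 1 kb of a span, MEF-only 4 and shared 1; covered regions were 5, 10, 8 and 7 from day 0 to day 6 and 17 in iPSC, and covered ends 0 from day 0 to day 6 and 3 in iPSC. With 20 kb each side, MEF-only regions were 4, shared 6, intermediate-only 26, and covered regions 10, 19, 10, 13, 20, 24 and 16 from day 0 to day 12. With 100 kb each side, MEF-only regions were 21, shared 18, and covered regions 39, 58, 32 and 47 from day 0 to day 6. A 2.5 kb end window gave 2 covered ends on day 0 and 5 on day 10. Leaving out day 2 or, chosen after seeing the data, day 12 moved none of 7 counts each. With day 2 in place of day 0, also chosen after seeing the data, MEF-only regions rose from 10 to 22 and the other 6 counts stayed.

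A region not covered in a list may be closed or below that list's depth, most of all on day 12, whose background pileup was the lowest. Regions covered in 1 list rest on 1 peak. Gene windows are position rules and do not tie a site to the gene it regulates.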
